A study of Mus musculus with 6 samples.

Results

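Asb7, Xpc, Tspan2, Hacd4 and March1 are 5 genes picked because their RNA was far lower in neutrophils sorted from mouse brain tumors than in neutrophils sorted from the blood of tumor-bearing mice. They were found by symbol, each once, among the 32285 genes listed for every library. The genes were chosen by their levels in the sorted tumor against blood contrast, so the levels and log2 changes of the 5 genes in that contrast are given as a description, with no test. The tests concern tumor neutrophils grouped by their Retnlg UMIs, other leukocytes of the tumor, and the gene families to which the 5 belong.

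Mice were injected with 10000 SB28 cells, a mouse glioma line, and cells were taken on day 18 and profiled by droplet-based 3' single-cell RNA sequencing. The groups were neutrophils sorted from the tumor, all CD45+ cells of the tumor (CD45 is a surface protein of leukocytes), and neutrophils sorted from blood, with 2 libraries each. The gate of both neutrophil sorts took CD45+ CD11b+ cells with high LY6G and low or absent LY6C. All mice carried tumors, and no strain, age or tumor-free group is given, so blood here is the blood of tumor-bearing mice. Whether samples 1 and 2 of a group came from separate mice is not stated, so the spread behind each p-value may be technical only. Blood and tumor also differed in how they were collected and processed, and tissue and handling cannot be told apart.

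The 5 products belong to unrelated families. Asb7 carries ankyrin repeats and a SOCS box, through which ASB proteins act as substrate receptors of cullin-5 ubiquitin ligases. Xpc is the damage sensor that starts global-genome nucleotide excision repair. Tspan2 is a tetraspanin, a membrane protein that crosses the membrane several times and organizes partner proteins in the membrane and is best known from oligodendrocytes. Hacd4 is a 3-hydroxyacyl-CoA dehydratase, a family that carries out the dehydration step when very long chain fatty acids are elongated. March1 (Marchf1 in current nomenclature) is a membrane-bound RING-CH ubiquitin ligase that marks MHC class II and CD86 for removal from the cell surface, and it is best known from B cells and dendritic cells. Neutrophils are short-lived phagocytes made in bone marrow, and Retnlg, used below to order tumor neutrophils, is a granulocyte gene that is abundant in circulating mouse neutrophils.

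On the mm10 (GRCm38) build with the GENCODE vM21 annotation all 5 are protein-coding genes. Asb7 lies at chr7:66644565-66689596 and Xpc at chr6:91489305-91515888, both on the minus strand. Tspan2 lies at chr3:102734529-102801513 on the plus strand, Hacd4 at chr4:88396144-88438928 on the minus strand, and March1 at chr8:65617900-66471637 on the plus strand. March1 spans 854 kb, longer than 99.4% of the genes tested in the sorted tumor against blood fit, whereas the other 4 span 26.6 to 67.0 kb.

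The sequence around the start of 4 of the 5 genes is shown because they fell together and because the study's title concerns hypoxia, whose transcription factors bind a short core motif. RefSeq (GRCm38.p6) gives windows from 250 bases before to 50 bases after each annotated start, and the table used here held windows for Asb7, Tspan2, Hacd4 and March1 (listed as Marchf1). Where a gene had several starts, the first is printed. Capitals mark the core searched, ACGTG or GCGTG on either strand (CACGT or CACGC when read on the printed one).
Asb7, chr7:66689512-66689811, minus strand: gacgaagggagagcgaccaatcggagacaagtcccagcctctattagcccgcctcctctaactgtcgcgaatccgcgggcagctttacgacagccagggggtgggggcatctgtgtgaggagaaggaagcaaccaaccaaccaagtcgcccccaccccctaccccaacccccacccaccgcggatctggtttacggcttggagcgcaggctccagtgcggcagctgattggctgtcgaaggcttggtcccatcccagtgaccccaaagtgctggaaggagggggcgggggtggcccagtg
Tspan2, chr3:102734520-102734819, plus strand: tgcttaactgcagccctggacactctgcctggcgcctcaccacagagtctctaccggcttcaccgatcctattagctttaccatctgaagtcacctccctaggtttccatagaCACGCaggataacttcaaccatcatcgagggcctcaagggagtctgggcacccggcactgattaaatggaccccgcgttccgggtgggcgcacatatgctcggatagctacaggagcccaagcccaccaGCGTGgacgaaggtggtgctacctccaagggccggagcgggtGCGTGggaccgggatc
Hacd4, chr4:88438866-88439165, minus strand: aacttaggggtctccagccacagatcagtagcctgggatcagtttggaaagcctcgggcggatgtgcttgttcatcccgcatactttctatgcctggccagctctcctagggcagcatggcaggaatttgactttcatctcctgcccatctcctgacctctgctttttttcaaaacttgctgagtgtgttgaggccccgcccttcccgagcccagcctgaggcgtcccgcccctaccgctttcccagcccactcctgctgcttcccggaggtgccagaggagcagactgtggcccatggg
March1, chr8:65617790-65618089, plus strand: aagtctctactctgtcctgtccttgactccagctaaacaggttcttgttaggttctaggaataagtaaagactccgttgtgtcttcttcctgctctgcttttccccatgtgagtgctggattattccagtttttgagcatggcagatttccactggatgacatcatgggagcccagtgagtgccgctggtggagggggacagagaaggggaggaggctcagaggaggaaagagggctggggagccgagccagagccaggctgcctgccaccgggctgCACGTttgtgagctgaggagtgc

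These windows had little in common. The core occurred 3 times in the Tspan2 window and once in the March1 window, and not at all in those of Asb7 and Hacd4. The second window of Tspan2 and the other 2 of March1, not printed, held none, so these counts depend on the start chosen. Of all 32851 windows of this length, 43.8% held it. The CCAAT box (CCAAT) occurred 2 times in the Asb7 window, against 37.4% of all windows with at least 1, and 2 times and once in the other March1 windows. The GC box (GGGCGG) occurred 3 times in the Hacd4 window and once in that of Asb7, against 35.7% of all windows, and the ETS core (AGGAAG) once each in those of Asb7 and March1, and once in each other March1 window, against 35.4%. All motifs were searched on both strands. No motif of the 4 searched was in all 4 printed windows. A match here is a match of letters, and nothing was measured on binding.

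From 20000 cells loaded per lane, the libraries held 4158 and 6612 barcodes (21841452 and 32628481 UMIs, unique molecular identifiers) for sorted tumor, 9418 and 8851 (82077047 and 129422458 UMIs) for CD45+ tumor, and 3121 and 5330 (13945799 and 21636838 UMIs) for blood. Cells in which S100a8 and S100a9 together made up at least 0.5% of the UMIs were taken as neutrophils. After filters and doublet removal this gave 3346 and 5547 neutrophils in sorted tumor, 613 and 805 in CD45+ tumor, and 2951 and 5006 in blood, with median depths of 3904 and 3871, 1614 and 2644, and 4253 and 3952 UMIs per cell. None of 11 neutrophil markers was at 0 in any library, and their summed level was 75201 and 83898 CPM (UMIs per 1000000 UMIs) in sorted tumor, 45890 and 52117 CPM in CD45+ tumor and 167481 and 162094 CPM in blood. The second sorted tumor library and the first CD45+ library shared 161 cell barcodes, 2.45% of the smaller library, against 3 to 35 for the other pairs. The shared cells had a median of 27899 UMIs in the sorted library and 740 in the CD45+ library, and 74 and 62 of them counted as neutrophils. Without all shared barcodes the log2 changes of the 5 genes between sorted tumor and blood lay between -3.75 for Asb7 and -2.94 for March1.

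Each of the 5 genes stood at 7.20% to 14.0% of its blood level in sorted tumor neutrophils. CPM in this comparison are scaled with TMM factors, and log2 changes are from edgeR's quasi-likelihood fit, with the standard error. Of the 13635 genes tested, 64% changed at an adjusted p under 0.05, 33.3% upwards and 30.7% downwards, and nothing is read from the 5 genes having fallen, since they were picked for it.

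Asb7 had 8.78 and 7.1 CPM in the sorted tumor libraries, against 117.5 and 103.1 CPM in the blood libraries. The log2 change was -3.80 ± 0.16. Asb7 thus stood lowest of the 5 relative to blood, with replicates far closer to each other than to the other tissue. Its neighbour Lins1 starts 292 bp away on the opposite strand, so that the genes face away from each other, and was not chosen for its values. Lins1 had 2.80 and 2.04 CPM in sorted tumor, against 22.1 and 20.9 CPM in blood, and fell by 3.16 ± 0.21 on the log2 scale (adjusted p = 1.44e-05). The pair of genes that share this stretch between their starts was therefore low in tumor together.

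Xpc had 9.84 and 9.41 CPM in the sorted tumor libraries, against 121.2 and 132.8 CPM in the blood libraries, a log2 change of -3.72 ± 0.13. It too has a neighbour that faces away from it, Lsm3, a component of the spliceosome and of mRNA decay complexes, whose gene lies 39 bp away. Lsm3 had 18.9 and 19.9 CPM in sorted tumor, against 24.9 and 27.6 CPM in blood (log2 change -0.43 ± 0.13, adjusted p = 0.0224). Its call was lost with DESeq2 (adjusted p = 0.0718), without the shared barcodes (0.0789), among neutrophils with little phagocyte RNA (0.182), without sorted tumor library 1 (0.0736) and without blood library 2 (0.171). The change of Lsm3 was thus small beside that of Xpc.

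Tspan2 had 8.16 and 6.48 CPM in the sorted tumor libraries, against 89.9 and 94.4 CPM in the blood libraries, a log2 change of -3.66 ± 0.16. The thyrotropin beta chain gene Tshb lies inside Tspan2 on the opposite strand. Tshb had 0 and 0.089 CPM in sorted tumor, against 2.5 and 4.04 CPM in blood, very low levels in both tissues. The antisense gene Tspan2os overlaps the start of Tspan2 by 889 bp. Tspan2os had 0.187 and 0.178 CPM in sorted tumor, against 1.48 and 1.33 CPM in blood. The strand setting of the authors' counting was not stated in the labels, so reads of Tspan2 and of genes that overlap it may not be fully separated.

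Hacd4 had 33.6 and 27.9 CPM in the sorted tumor libraries, against 315.5 and 285.5 CPM in the blood libraries, a log2 change of -3.29 ± 0.15. Focad, which encodes focadhesin, overlaps Hacd4 by 14868 bp on the opposite strand. Focad had 2.18 and 3.51 CPM in sorted tumor, against 12.5 and 12.3 CPM in blood, and fell by 2.10 ± 0.25 on the log2 scale (adjusted p = 0.000249), with the same limit on strand.

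March1 had 52.9 and 45.7 CPM in the sorted tumor libraries, against 375.8 and 328.6 CPM in the blood libraries, a log2 change of -2.84 ± 0.14. It kept the largest share of its blood level of the 5. The antisense genes Gm15354 and Gm15356 lie inside March1, with the same limit on strand. Gm15354 had 0.125 and 0.044 CPM in sorted tumor, against 0.859 and 1.13 CPM in blood. Gm15356 had 0.187 and 0.044 CPM in sorted tumor, against 1.72 and 1.03 CPM in blood. Among neutrophils in which RNA of 8 phagocyte genes made up under 0.1% of the UMIs the log2 change of March1 was -3.22 and that of Hacd4 -3.20, so there Hacd4 kept the largest share. That of Tspan2 was -3.28, that of Xpc -3.49 and that of Asb7 -3.57. In each of the 5 genes both sorted tumor libraries were below both blood libraries.

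**Figure D1:**
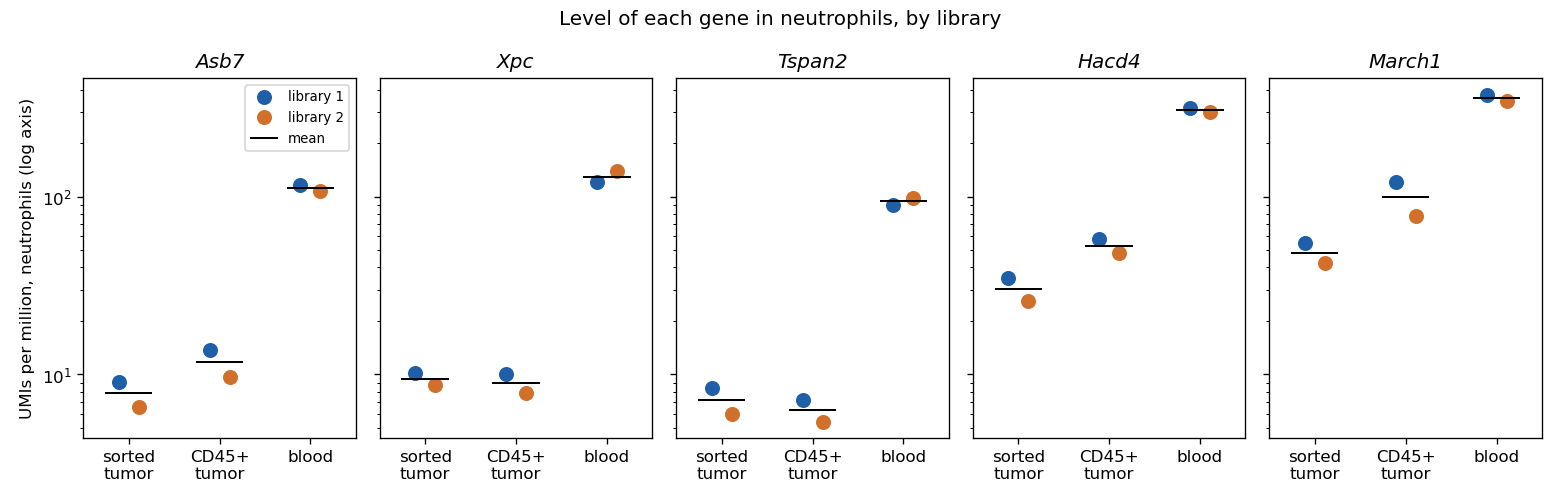
Level of each gene in neutrophils of the 6 libraries, in CPM without scaling factors (log axis); dots are libraries and bars the mean of 2. Tumor libraries of both kinds lie below both blood libraries for every gene, and for Hacd4, March1 and Asb7 both CD45+ tumor libraries lie above both sorted tumor libraries. Without scaling factors the median gene was also lower in sorted than in CD45+ tumor (log2 change -0.38), and with TMM factors Asb7 overlapped. Tspan2 and Xpc overlap here, but with TMM factors both sorted tumor libraries were above both CD45+ tumor libraries.

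Of the genes called lower, 4185 had both sorted tumor libraries below both blood libraries, and 2886 of these had at least 10 CPM in both blood libraries. Among the 2886, Asb7 ranked 9th and Xpc 10th by log2 change, Tspan2 13th, Hacd4 27th and March1 72nd. The 5 are thus not the largest falls of the table. Genes directly beside them in this order were Gm5441 (-3.84), Gm4356 (-3.72), Gm2245 (-3.67), Avil (-3.57), Sntb1 (-3.30), Sema4b (-3.27), Fam129a (-2.84) and Nlrp12 (-2.83), all as log2 changes. Avil and Sntb1 encode actin- and dystrophin-associated proteins, and Nlrp12 is a regulator of inflammatory signalling in myeloid cells.

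The share of cells with a UMI was lower in tumor for all 5 genes. Every neutrophil was thinned to 1000 UMIs, which leaves out 99 and 184 sorted tumor, 99 and 32 CD45+ tumor and 130 and 572 blood neutrophils below that depth. Asb7 was then seen in 0.893% and 0.653% of sorted tumor neutrophils, against 10.5% and 8.86% of blood neutrophils. For Xpc the shares were 0.647% and 0.783% in sorted tumor, against 10.5% and 12.5% in blood, and for Tspan2 0.893% and 0.690%, against 8.72% and 9.68%. Hacd4 was seen in 3.02% and 2.14% of sorted tumor neutrophils, against 25.6% and 25.0% of blood neutrophils, and March1 in 3.20% and 2.80%, against 29.1% and 26.8%. Mononuclear phagocyte-like cells of the CD45+ libraries, described further on, had shares of 0.934% and 0.889% for Asb7 and of 0.872% and 0.577% for Xpc, at median depths of 8479 and 11318 UMIs before thinning. For Tspan2 the phagocyte-like cells had 0.0623% and 0.024%, well under the tumor neutrophils, and for Hacd4 none of 197 and 49 B or plasma cell-like cells had a UMI, which allows up to 1.86% and 7.25% (exact 95% limits). For Asb7, Xpc and March1 no class without the gene was at hand, so a level from free RNA in the droplets was not set.

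**Figure D2:**
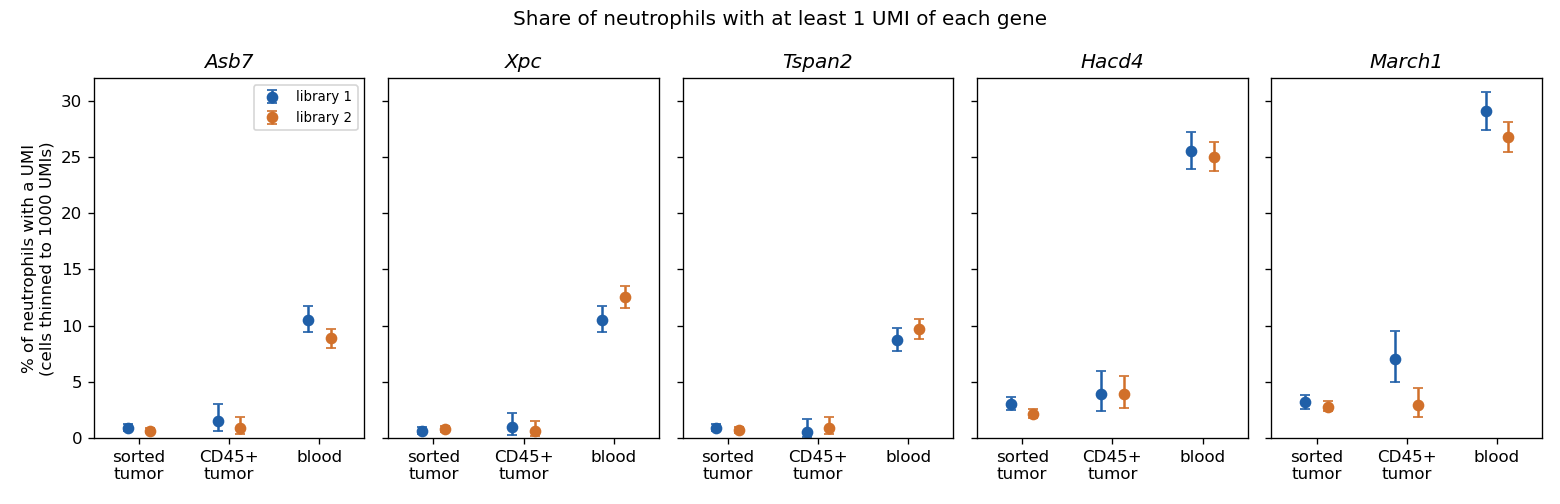
Share of neutrophils with at least 1 UMI of each gene after every cell was thinned to 1000 UMIs, by library, with exact 95% intervals (Clopper-Pearson, counting error only). Blood shares lie between 8.72% and 29.1%, and those of sorted tumor between 0.647% and 3.20%.

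The neutrophils within the CD45+ libraries, which did not pass through the neutrophil gate and did not enter the choice of genes, were low as well. In unscaled CPM, Asb7 was at 13.7 and 9.64 in CD45+ tumor neutrophils, against 117.1 and 107.6 in blood neutrophils, and Xpc at 10.1 and 7.84, against 120.7 and 138.6. Tspan2 was at 7.22 and 5.42 CPM in CD45+ tumor, against 89.5 and 98.6 CPM in blood. These Tspan2 values rest on 10 and 18 UMIs in CD45+ tumor, against 1152 and 1917 UMIs in blood. Hacd4 was at 57.8 and 47.9 CPM in CD45+ tumor, against 314.3 and 298.0 CPM in blood, and March1 at 121.3 and 77.4 CPM, against 374.3 and 343.0 CPM. The blood libraries are the same as above and entered the choice of genes, so these are not independent comparisons. Of the CD45+ tumor neutrophils, 308 of 613 and 307 of 805 stayed under the limit on phagocyte RNA given above. Mononuclear phagocyte-like cells had 9.57 and 9.30 CPM of Asb7 and 9.40 and 9.49 CPM of Xpc. They had less Tspan2 (0.573 and 0.52 CPM) than the neutrophils, and more Hacd4 (83.8 and 74.4 CPM) and March1 (203.7 and 159.4 CPM). The part of phagocyte RNA or mixed cells was not tested. Both CD45+ libraries were below both blood libraries in each of the 5 genes. The share of all genes with this order was not counted, so nothing is read from that count.

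Between the tumor neutrophil preparations, sorted against CD45+, 0 of the 5 genes passed in edgeR's quasi-likelihood test, with 5.62% of 12481 genes called, 1.99% higher and 3.64% lower. At an unadjusted p under 0.05 it was 1 of 5, March1, and DESeq2 also called 0. In scaled CPM, March1 had 58.6 and 50.7 in sorted tumor, against 107.0 and 69.2 in CD45+ tumor (log2 change -0.67 ± 0.23, adjusted p = 0.108). Hacd4 had 37.2 and 31.0 in sorted tumor, against 51.0 and 42.8 in CD45+ tumor (-0.45 ± 0.20, adjusted p = 0.18). For both genes the preparations did not overlap, with sorted tumor lower, but the difference did not pass the threshold. For Tspan2 and Xpc the preparations did not overlap either, with sorted tumor higher, and for Asb7 they overlapped. The share of all genes without overlap was not counted, so nothing is read from this order. The differences of Tspan2 (0.58 ± 0.34), Xpc (0.46 ± 0.28) and Asb7 (-0.19 ± 0.30) had adjusted p of 0.284, 0.302 and 0.703. The count of all genes called here lay between 0 and 4754 over the settings, and it was 0 without either sorted tumor library. Without scaling factors the median of all genes was -0.38 rather than -0.03, and 7.01% rather than 35.3% of the calls were higher. Without scaling factors, with the neutrophil threshold at 0.2% or with doublets kept, 2 of the 5 genes passed. In each of these settings far more genes were called in all than the 702 of the main fit. Without scaling factors 133 were called higher and 1765 lower, and at 0.2% 4754 were called. Nothing is therefore read from these counts of the 5 genes.

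Markers of other cell types also differed between the neutrophils of tumor and blood. The 10 macrophage markers summed to 5157 and 3993 CPM in sorted tumor neutrophils, 8561 and 11965 CPM in CD45+ tumor neutrophils, and 405 and 518 CPM in blood neutrophils, with no marker at 0. The 8 microglia markers summed to 1182 and 817, 1353 and 1701, and 321 and 254 CPM, with 2 of them at 0 in each blood library. The other cells of the CD45+ libraries had 18776 and 20775 CPM of macrophage and 820 and 995 CPM of microglia markers. The CD45+ tumor neutrophils thus carried much phagocyte RNA, and more of the microglia markers than the other cells. The 7 monocyte markers summed to 1750 and 1895, 2399 and 3045, and 1246 and 2028 CPM. Endothelial, stromal and plasmacytoid dendritic cell markers had higher sums in sorted tumor than in blood. The 4 endothelial markers summed to 51.5 and 72.0 CPM in sorted tumor, against 13.3 and 13.8 CPM in blood. For the 4 stromal markers the sums were 9.87 and 10.7 CPM, against 0.466 and 1.18 CPM. For the 4 plasmacytoid dendritic cell markers they were 49.2 and 35.9 CPM, against 0.389 and 0.463 CPM. Some other lists had lower sums in sorted tumor than in blood. The 7 B or plasma cell markers summed to 3.74 and 4.64 CPM in sorted tumor (3 and 2 at 0), 34.7 and 11.8 CPM in CD45+ tumor (4 and 2 at 0) and 17.5 and 55.8 CPM in blood. The 11 T or NK cell markers summed to 8.19 and 4.92, 6.5 and 5.12, and 24.5 and 28.8 CPM, with 5 to 8 of them at 0 in each library. The 5 erythroid markers summed to 5.16 and 1.07, 2.89 and 3.32, and 10.4 and 314.1 CPM. The 5 tumor or neural markers, Mbp among them, summed to 45.8 and 36.4, 59.2 and 49.7, and 302.3 and 307.7 CPM. Gfap, Olig1 and Sox2 were at 0 in both blood libraries. Most of the sum was Mbp alone, with scaled means of 40.5 CPM in sorted tumor and 298.6 CPM in blood. The part of such RNA in the levels of the 5 genes was not tested.

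Within the tumor, Asb7, Xpc, Tspan2 and Hacd4 were higher in neutrophils rich in Retnlg, and March1 was not. Each tumor neutrophil was thinned to 1000 UMIs and put into a class with 0, with 1 to 4 or with at least 5 Retnlg UMIs, called Retnlg-0, Retnlg-low and Retnlg-high. Counts were summed per class and library over the 4 tumor libraries and fitted with the library as a block and Retnlg left out. In the sorted tumor libraries 749 and 2052 cells were Retnlg-high, 907 and 1651 low and 1591 and 1660 at 0. In the CD45+ libraries 147 and 285 were high, 133 and 231 low and 234 and 257 at 0. Of 10853 genes, 19% were called higher and 27.2% lower in Retnlg-high cells, and 4 of the 5 genes were among those higher. The 5 were picked as high in blood, and the share called higher among all genes that fell from blood to tumor was not counted. Nothing is therefore read from 4 of 5 against 19%.

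Asb7 had 24.7 and 13.3 scaled CPM in the Retnlg-high cells of the sorted tumor libraries, against 6.27 and 5.61 in their Retnlg-0 cells. In the CD45+ libraries it had 35.1 and 14.5 in Retnlg-high cells, against 7.30 and 6.63 in Retnlg-0 cells. It was higher in 4 of 4 libraries, by 1.61 ± 0.28 on the log2 scale (adjusted p = 0.000115, edgeR). Retnlg-low cells were no step in between: Asb7 had 6.23 and 4.50 there in sorted tumor, and -0.19 ± 0.32 against Retnlg-0 cells over the 4 libraries (adjusted p = 0.782).

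Hacd4 had 74.2 and 47.1 scaled CPM in Retnlg-high cells of sorted tumor, against 21.8 and 16.3 in Retnlg-0 cells. In the CD45+ libraries the values were 92.6 and 49.5, against 40.2 and 35.4. The rise of 1.35 ± 0.18 (adjusted p = 9.31e-06) had the lowest p of the 5 and was seen in 4 of 4 libraries. Hacd4 was also the only one of the 5 to pass in Retnlg-low against Retnlg-0 cells, by 0.68 ± 0.19 (adjusted p = 0.0333), where 6.95% of genes were called, 5.4% higher and 1.55% lower. In Retnlg-low cells of sorted tumor it had 41.6 and 29.4 CPM, between the high and the 0 classes. In the CD45+ libraries it had 34.6 CPM there, below the Retnlg-0 cells of library 1, and 50.3 CPM, above the Retnlg-high cells of library 2, so it was intermediate in 2 of 4 libraries.

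Tspan2 had 18.6 and 9.23 scaled CPM in Retnlg-high cells of sorted tumor, against 4.67 and 4.44 in Retnlg-0 cells. In the CD45+ libraries it had 6.39 and 8.44, against 8.52 and 2.21, on 2 to 7 UMIs per class and library. The change was 1.40 ± 0.31 (adjusted p = 0.00116), higher in 3 of 4 libraries. Without sorted tumor library 1 Tspan2 had too few UMIs to be tested.

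Xpc had 18.9 and 14.5 scaled CPM in Retnlg-high cells of sorted tumor, against 7.13 and 7.31 in Retnlg-0 cells, and in the CD45+ libraries 19.2 and 8.44, against 7.30 and 6.63. It was higher in 4 of 4 libraries, by 1.1 ± 0.23 (adjusted p = 0.000846).

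March1 had 68.1 and 47.2 scaled CPM in Retnlg-high cells of sorted tumor, against 54.2 and 48.8 in Retnlg-0 cells, and in the CD45+ libraries 92.6 and 44.6, against 104.7 and 81.8. The change of -0.11 ± 0.15 did not pass (adjusted p = 0.578), and the libraries went both ways. With a neutrophil threshold of 2% March1 was higher in Retnlg-high cells by 0.63 (adjusted p = 0.0119), so its direction depends on which cells count as neutrophils.

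**Figure D3:**
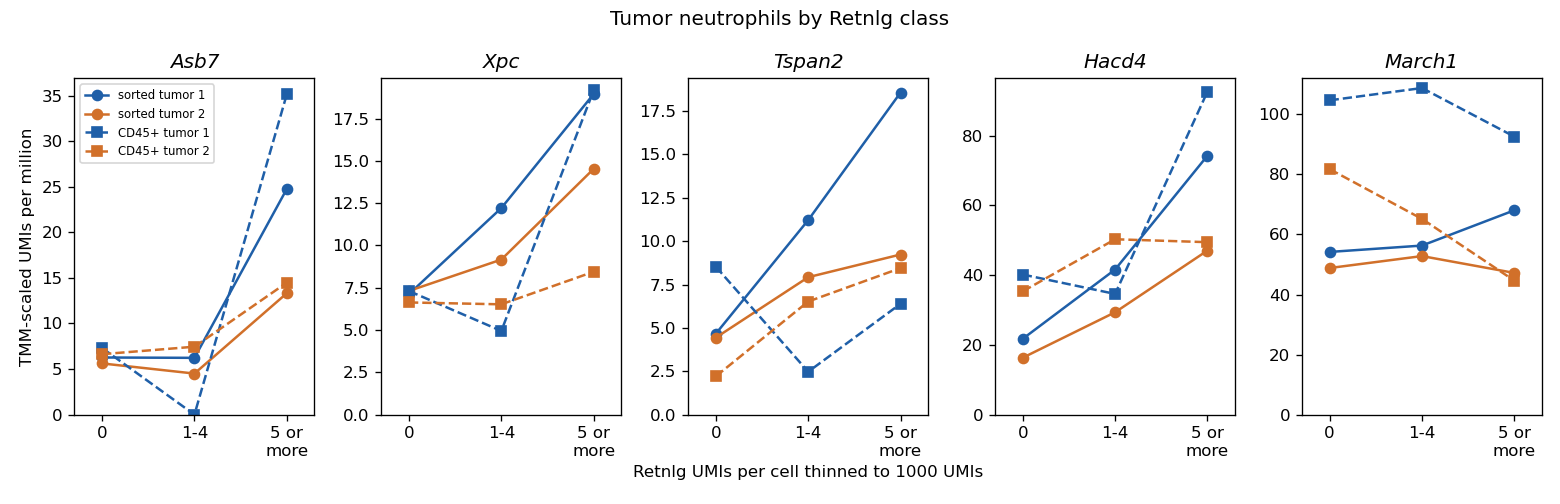
TMM-scaled CPM of each gene in tumor neutrophils with 0, 1 to 4 and at least 5 Retnlg UMIs, 1 line per library (solid for sorted tumor, dashed for CD45+ tumor; y axes differ). Asb7, Xpc and Hacd4 end higher than they start in 4 of 4 libraries, Tspan2 in 3 of 4, and March1 goes both ways.

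The size of these changes depends on the scaling, since the median gene was itself lower in Retnlg-high cells, by -0.17 with TMM, -0.13 with DESeq2-type size factors and -0.63 with no scaling factors. Relative to that median the changes were 1.78 for Asb7, 1.27 for Xpc, 1.57 for Tspan2, 1.52 for Hacd4 and 0.06 for March1 with TMM, and with no scaling factors 1.78, 1.26, 1.56, 1.53 and 0.07. Of all genes called, 41.2% were higher with TMM and 12.6% with no scaling factors. Asb7, Xpc, Tspan2 and Hacd4 passed under every scaling run, and without scaling March1 was lower (-0.56, adjusted p = 0.00436).

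Phagocyte RNA moved with the Retnlg classes. Macrophage markers summed to 1398 and 1295 CPM in Retnlg-high cells of sorted tumor, against 6991 and 6711 CPM in Retnlg-0 cells, and in the CD45+ libraries to 2358 and 4029 CPM, against 10272 and 15479 CPM. The other cells of the CD45+ libraries had 18776 and 20775 CPM of these markers. The 11 neutrophil markers, Retnlg among them, summed to 99626 and 102796 CPM in Retnlg-high cells of the CD45+ libraries. In their Retnlg-0 cells the sums were 26236 and 24687 CPM, and in the other cells 376 and 373 CPM. Whether these Retnlg-0 cells include phagocytes was not tested, so the classes may differ in cell type. The part of phagocyte RNA in these changes was not tested. Among neutrophils with under 0.1% phagocyte UMIs fewer genes in all were called than the 5019 of the main fit. The 4 genes passed there, and the change of March1 was 0.47 (adjusted p = 0.145, edgeR). Nothing on phagocyte RNA is read from that count. In the CD45+ libraries alone, with 3 of the 5 genes testable, 0 passed in edgeR, 2 had an unadjusted p under 0.05, and DESeq2 called 0. Over all genes edgeR called 1454 and DESeq2 730 in the CD45+ libraries alone. There Asb7 stood at 1.62 (adjusted p = 0.11) and Hacd4 at 0.79 (adjusted p = 0.107). The Retnlg change itself differed between sorted and CD45+ libraries for 0 of the 5 genes in edgeR, with 0.0276% of genes called. At an unadjusted p under 0.05 it was 2 of 5, Hacd4 and March1.

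Retnlg-high tumor neutrophils stayed far below blood. In unscaled CPM, Asb7 in Retnlg-high cells of sorted tumor was at 11.4% of the mean in Retnlg-high blood cells, Xpc at 9.18%, Tspan2 at 11.9%, Hacd4 at 14.5% and March1 at 12.5%. Retnlg-high cells of the CD45+ libraries were at 19.7%, 10.1%, 8.15%, 22.5% and 19.7% of that mean for Asb7, Xpc, Tspan2, Hacd4 and March1. In blood the classes differed in size, with 1981 and 3393 Retnlg-high and 153 and 169 Retnlg-0 cells. Asb7 was at 130.3 and 118.6 CPM in Retnlg-high blood cells, against 53.2 and 42.1 CPM in Retnlg-0 blood cells. Xpc was at 127.2 and 142.8 CPM, against 98.6 and 85.6 CPM. For Tspan2 the values of 82.2 and 92.5 CPM, against 112.7 and 76.9 CPM, overlapped, as did those of Hacd4 at 313.2 and 306.0 CPM, against 355.3 and 213.2 CPM. March1 was lower in Retnlg-high blood cells in both libraries, at 352.7 and 332.1 unscaled CPM, against 405.4 and 413.3, but its fitted change in blood with TMM factors was 0.13, so the direction turns with the scaling. In one fit over sorted tumor and blood, the Retnlg change was 1.69 in tumor and 0.27 in blood for Tspan2 and 1.82 in tumor and 0.53 in blood for Hacd4. The difference passed for Tspan2 (1.42 ± 0.34, adjusted p = 0.0189) and for Hacd4 (1.29 ± 0.22, adjusted p = 0.00226), with 7.68% of 12462 genes called, and not for Asb7, Xpc or March1. The median gene differed by 0.15. It did not pass for either gene without the first sorted tumor library (0.54 and 0.76) or with classes made at 2000 UMIs (0.42 and 0.25). For Tspan2 it also did not pass without the first blood library (1.00), without the shared barcodes (1.31, adjusted p = 0.0507), at a neutrophil threshold of 2% (1.03), in neutrophils with little phagocyte RNA (1.1) or without scaling factors (1.13).

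Tspan2 was higher and March1 lower in neutrophils than in the sum of all other cells of the CD45+ libraries. Tspan2 was not higher than in each class, since dendritic cell-like cells had 12.6 and 11.7 CPM, against 7.22 and 5.42 CPM in neutrophils. Neutrophils were tested against all other cells, 8034 and 7292 in number, with the library as a block, which leaves 1 residual degree of freedom and a spread borrowed over genes. Of 16127 genes 42.1% were called, and 2 of the 5. The neutrophils of this test also carried macrophage and microglia markers, as given above, and the part of that RNA was not tested. Tspan2 had 7.56 and 6.32 scaled CPM in neutrophils, against 1.81 and 1.63 in other cells, higher by 2.00 ± 0.51 (adjusted p = 0.000326). March1 had 127.0 and 90.3 in neutrophils, against 178.8 and 159.1 in other cells, and was lower by -0.66 ± 0.14 (adjusted p = 2.16e-05). With the neutrophil threshold at 0.2% the March1 difference was -0.25 and did not pass (adjusted p = 0.0752).

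Asb7 had 14.4 and 11.2 scaled CPM in neutrophils, against 9.29 and 8.87 in other cells (0.47 ± 0.31, adjusted p = 0.231). Xpc had 10.6 and 9.13, against 8.99 and 9.09 (0.10 ± 0.33, adjusted p = 0.843), and Hacd4 60.5 and 55.9, against 65.1 and 57.4 (-0.07 ± 0.16, adjusted p = 0.774). These 3 differences did not pass, and the sign of those of Xpc and Hacd4 changed with the scaling. The median gene was lower in neutrophils by -0.16 with TMM and -0.33 with no scaling factors. Of all genes called, 45.2% were higher with TMM and 35.2% with no scaling factors.

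The other cells were clustered without the 5 genes among the variable genes and named from marker lists, so the names are rebuilt and not the study's. Mononuclear phagocyte-like cells numbered 4856 and 4227 (60.4% and 58.0% of the other cells), dendritic cell-like cells 709 and 795, and B or plasma cell-like cells 217 and 51. T or NK cell-like cells numbered 606 and 306. Mast cell or basophil-like cells (20 and 17) and plasmacytoid dendritic cell-like cells (17 and 7) were too few to describe. Clusters without a name held 1609 and 1889 cells. They include a cluster of 112 and 112 cells led by S100a9 and Retnlg that lay under the neutrophil threshold, and a cluster of 66 and 1154 cells with S100a8 and Cxcr2 among its genes. Different clusters made up the phagocyte-like class in the libraries: one led by Cxcl9 held 1247 and 71 of its cells, one led by Ms4a7 102 and 1086, and one with Lcn2, Prtn3 and S100a8 beside Chil3 among its leading genes, granulocyte genes, held 698 and 13. Without that last cluster, in a calculation added after seeing the data, phagocyte-like cells had 201.4 and 159.3 CPM of March1, 85.9 and 74.4 CPM of Hacd4, 0.667 and 0.522 CPM of Tspan2, 9.86 and 9.3 CPM of Asb7 and 9.52 and 9.48 CPM of Xpc, close to the levels with it. The levels below are in unscaled CPM, by library, with no test between classes.

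March1 was at 121.3 and 77.4 CPM in neutrophils, against 881.9 and 685.0 CPM in B or plasma cell-like cells, the class with the highest level. Of those B or plasma cell-like cells 51.3% and 36.7% carried a UMI after thinning to 1000 UMIs. Mononuclear phagocyte-like cells had 203.7 and 159.4 CPM, dendritic cell-like cells 170.1 and 126.6 CPM and T or NK cell-like cells 95.2 and 64.2 CPM. Phagocyte-like and dendritic cell-like cells overlapped, as did neutrophils and T or NK cell-like cells, and the B or plasma cell-like cells stood apart. Blood neutrophils, at 374.3 and 343.0 CPM, were above the phagocyte-like, dendritic cell-like and T or NK cell-like cells and below the B or plasma cell-like cells of the tumor.

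Hacd4 was at 57.8 and 47.9 CPM in neutrophils, against 83.8 and 74.4 CPM in mononuclear phagocyte-like cells, the highest of the classes described. T or NK cell-like cells had 38.5 and 24.8 CPM. Dendritic cell-like cells had 11.3 and 13.01 CPM. B or plasma cell-like cells held 0 Hacd4 UMIs in both libraries, which allows up to 6.29 and 17.0 CPM (3 counts in each library). The 4 classes described here in which Hacd4 was detected did not overlap. Clusters without a name had a mean of 52.9 CPM, at the level of the neutrophils.

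Tspan2 was at 7.22 and 5.42 CPM in neutrophils, against 0.573 and 0.52 CPM in mononuclear phagocyte-like cells, on 30 UMIs in each library. Dendritic cell-like cells had the highest level with many UMIs, 12.6 and 11.7 CPM. B or plasma cell-like cells had 8.38 and 22.6 CPM on 4 UMIs each. T or NK cell-like cells had 4.43 and 5.47 CPM and overlapped the neutrophils.

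Asb7 and Xpc had narrower ranges over the classes. Asb7 ran between 8.43 and 17.5 CPM and Xpc between 7.84 and 13.7 CPM over neutrophils, phagocyte-like, dendritic cell-like, T or NK cell-like and B or plasma cell-like cells. The B or plasma cell-like values rest on 2 to 6 UMIs. Xpc at 7.84 CPM in neutrophils of the second library was the lowest of these values. Blood neutrophils stood at 117.1 and 107.6 CPM of Asb7 and 120.7 and 138.6 CPM of Xpc. The few other cells in the blood sort, 86 and 78 in number, had 14.9 and 15.2 CPM of Asb7, 29.8 and 30.3 CPM of Xpc and 476.5 and 478.0 CPM of March1.

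**Figure D4:**
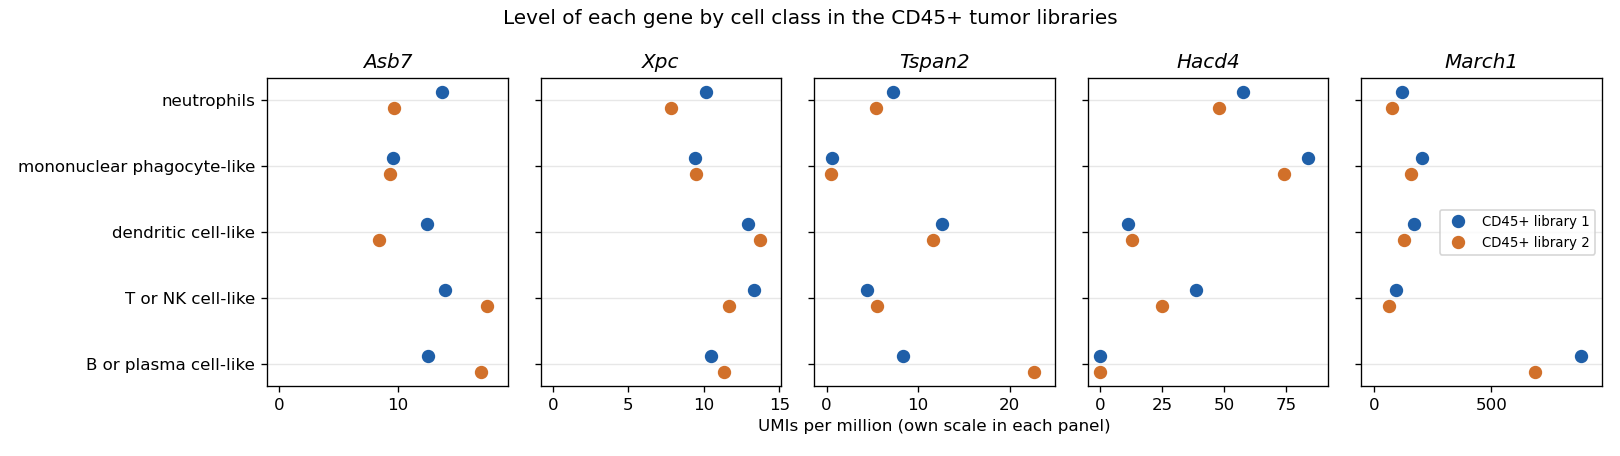
Level of each gene in neutrophils and in 4 cell classes of the CD45+ tumor libraries, in CPM, 1 dot per library and an x axis of its own in each panel. March1 stands out in B or plasma cell-like cells, Hacd4 in mononuclear phagocyte-like cells and neutrophils, and Tspan2 is at 0.573 and 0.52 in mononuclear phagocyte-like cells.

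Over 16 profiles (the 2 blood libraries, the 3 Retnlg classes of the 4 tumor libraries and the other cells of the 2 CD45+ libraries) the genes most like each of the 5 were named by Pearson's r of log2(CPM + 10) among 5965 genes with at least 10 CPM in both blood libraries. These profiles share libraries and a split between blood and tumor, and r is given only as a description. For Asb7 these were Gm26532 (0.973), 2610507I01Rik (0.972) and Cep19 (0.971), a centrosomal protein gene. For Xpc they were Prr33 (0.986), Ncor1 (0.983), a corepressor of nuclear receptors, and Asxl1 (0.981), a chromatin regulator often mutated in myeloid malignancies. For Tspan2 they included Kif23 (0.984), a mitotic kinesin gene, and Gm15729 (0.976), and for Hacd4 they were Mbp (0.966), Add3 (0.959) and Pip4k2a (0.959). For March1 they were 5031439G07Rik (0.985), Arhgap18 (0.965) and Tmpo (0.964). Asb7, Xpc, Tspan2 and Hacd4 had r between 0.834 and 0.956 with each other, and March1 had r between 0.587 and 0.829 with them.

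The falls of the 5 genes were not shared by their families as a whole. In each of the 6 lists below, which leave the 5 genes out, more genes rose than fell between sorted tumor and blood neutrophils, in a fit in which 33.3% of all genes rose and 30.7% fell and the median log2 change was 0.02. Macrophage marker sums moved in the same direction, as given above, and their part was not tested.

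Of 23 genes of cullin-5 ligases with a SOCS box, 15 were tested, 8 rose and 4 fell, with a median log2 change of 0.52. Asb3 had 9.84 and 10.4 CPM in sorted tumor, against 29.7 and 27.4 CPM in blood, and fell by 1.49 ± 0.14 (adjusted p = 7.78e-05). Asb14 fell by 1.37 ± 0.48 (adjusted p = 0.0374), on 11 UMIs in tumor and 25 in blood, and lost its call with DESeq2 and without each single library, among others. Asb11 rose by 3.09 ± 0.48 (adjusted p = 0.000964), on 105 UMIs in tumor and 10 in blood, and Asb2 by 2.25 ± 0.44 (adjusted p = 0.0029), on 97 UMIs in tumor and 17 in blood. With DESeq2, or without any 1 of 3 libraries (sorted tumor 1, sorted tumor 2, blood 2), 2 genes of the list fell.

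All 33 genes of nucleotide excision repair were tested, and 14 rose and 6 fell, with a median of 0.26. Xpa, which verifies the damage that Xpc finds, had 11.6 and 13.9 CPM in sorted tumor, against 44.3 and 41.1 CPM in blood, and fell by 1.74 ± 0.15 (adjusted p = 4.26e-05). Cdk7, a kinase of the repair and transcription factor TFIIH, fell by 1.16 ± 0.18 (adjusted p = 0.001). Its partner Mnat1 had 16.8 and 32.7 CPM in sorted tumor, against 1.09 and 1.53 CPM in blood, and rose by 4.2 ± 0.38 (adjusted p = 6.49e-05). The DNA ligase gene Lig1 rose by 3.50 ± 0.38 (adjusted p = 0.000155). In neutrophils with little phagocyte RNA 7 genes of the list rose, and 8 did with the neutrophil threshold at 2% or without the shared barcodes.

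Of 28 tetraspanin genes, 19 were tested, 11 rose and 6 fell, with a median of 1.27, also with 2 genes without a UMI in blood set to their lower bound. Tspan13 had 103.6 and 104.0 CPM in sorted tumor, against 277.5 and 290.1 CPM in blood, and fell by 1.45 ± 0.11 (adjusted p = 3.09e-05). Cd37, a tetraspanin of leukocytes, fell by 1.36 ± 0.11 (adjusted p = 4.04e-05). Tspan33 had 45 UMIs in sorted tumor and 0 in blood neutrophils, at least 12.2-fold higher against 3 counts over the group, and Tspan18 had 31 and 0, at least 8.37-fold higher. In neutrophils with little phagocyte RNA 6 genes of the list rose and 6 fell, and 7 rose with the neutrophil threshold at 2% or without the shared barcodes.

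Of 21 genes of very long chain fatty acid elongation, 14 were tested, 8 rose and 4 fell, with a median of 0.65. Tecr, which carries out the step after the HACD dehydratases, had 37.7 and 34.0 CPM in sorted tumor, against 85.9 and 88.3 CPM in blood, and fell by 1.28 ± 0.12 (adjusted p = 7.3e-05). The elongase gene Elovl7 fell by 1.04 ± 0.33 (adjusted p = 0.027), a call lost with the neutrophil threshold at 2%, with little phagocyte RNA and without the shared barcodes. Hsd17b12, which carries out the step before the HACD dehydratases, had 28.1 and 29.2 CPM in sorted tumor, against 1.01 and 3.40 CPM in blood, and rose by 3.60 ± 0.38 (adjusted p = 0.000128). The desaturase gene Fads1 had 88 UMIs in sorted tumor and 1 in blood, a ratio of 71.3 per UMI sequenced (exact 95% interval 12.5 to 2848, counting error only). In neutrophils with little phagocyte RNA 5 genes of the list rose.

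Of 10 membrane-associated RING-CH ligase genes, 7 were tested, 4 rose and 1 fell, with a median of 0.51. March2 had 24.2 and 22.4 CPM in sorted tumor, against 47.3 and 46.6 CPM in blood, and fell by 1.01 ± 0.12 (adjusted p = 0.000282). March3 had 148.6 and 155.7 CPM in sorted tumor, against 62.8 and 46.7 CPM in blood, and rose by 1.48 ± 0.16 (adjusted p = 0.000139). March4 had 171 UMIs in sorted tumor and 3 in blood, a ratio of 46.2 (exact 95% interval 15.5 to 226, counting error only).

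The last list holds 12 genes of MHC class II and Cd86, known targets of March1, with Cd83, which in mouse dendritic cells opposes March1. All 12 were tested, 6 rose and 6 did not pass, with a median of 0.79. The count that rose was 2 without the shared barcodes, 3 without sorted tumor library 1 and 10 without blood library 2. Without blood library 1, 5 rose and 3 fell. Cd86 had 133.7 and 127.9 CPM in sorted tumor, against 29.9 and 25.1 CPM in blood, and rose by 2.25 ± 0.13 (adjusted p = 1e-05). In neutrophils with little phagocyte RNA the change of Cd86 was 0.85 (adjusted p = 0.0012). Cd83 had 144.9 and 97.9 CPM in sorted tumor, against 0.156 and 0.788 CPM in blood, and rose by 7.81 ± 0.40 (adjusted p = 5.61e-06). In Retnlg-high tumor neutrophils 10 of these 12 were lower than in Retnlg-0 cells, where 27.2% of the genes tested were called lower, alongside the macrophage sums of 1398 and 1295 CPM, against 6991 and 6711 CPM, in sorted tumor. In neutrophils 9 of the 12 were lower than in other CD45+ cells, where 23.1% of the genes tested were called lower. The part of phagocyte RNA in these counts was not tested.

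**Figure D5:**
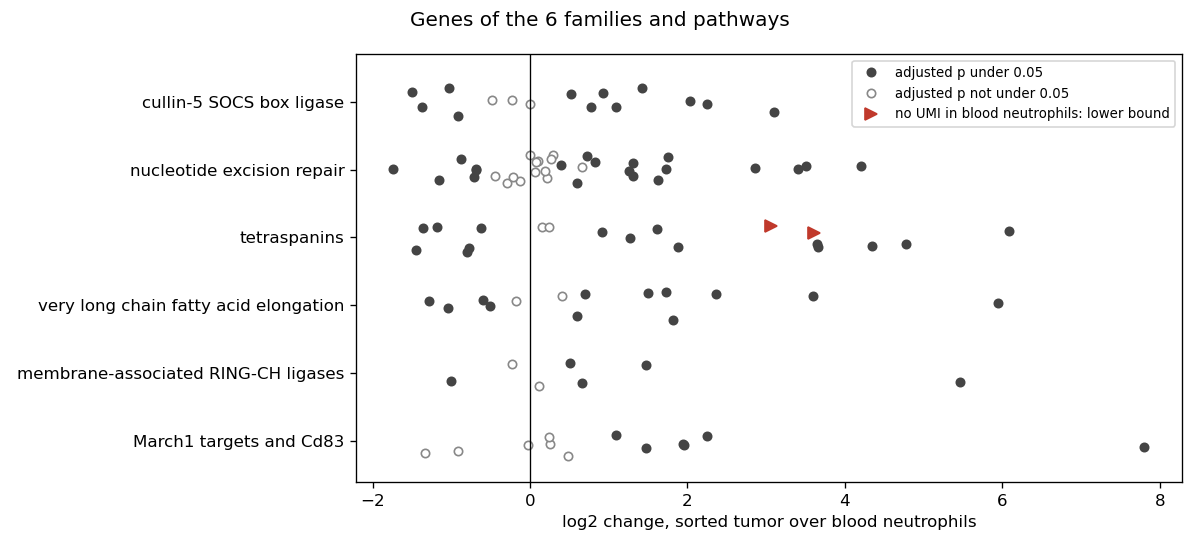
Log2 change between sorted tumor and blood neutrophils of the genes of the 6 lists, each dot a gene; filled dots had an adjusted p under 0.05, open dots did not, and triangles are lower bounds for genes without a UMI in blood. Each list holds more filled dots right of 0 than left of it.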

How the data were processed

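UMI counts per gene and cell barcode, deposited by the authors as raw counts, came from Cell Ranger 7.1.0 with the mm10 build, per the submitters' processing notes. Whether intronic or antisense reads were counted is not stated in the labels. Barcodes under 200 genes or over 10% mitochondrial UMIs were left out. The automatic Scrublet threshold marked 0 to 0.128% of barcodes, so the top-scoring barcodes, 0.8% per 1000 barcodes, were removed instead (78 to 705 per library). Cells with S100a8 and S100a9 at 0.5% of UMIs or more were neutrophils. Between 1.17% and 6.62% of a library's cells lay near that limit (0.35% to 0.7%). Thinning to 1000 UMIs used a fixed seed. The other cells were clustered with scanpy 1.11.5 (2000 variable genes without the 5 genes, 30 components, 15 neighbours, Leiden resolution 1.0) and named from marker lists, with a score ratio of 0.65 set after seeing the data.

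Counts summed per library and class were tested with edgeR 4.0.16 (quasi-likelihood, TMM, filterByExpr, Benjamini-Hochberg adjusted p under 0.05 over all genes tested). DESeq2 1.42.0 was an alternative. Samples were grouped by their labels, and the comparisons set sorted tumor neutrophils against those of blood and of CD45+ tumor, Retnlg-high with Retnlg-0 tumor neutrophils, and neutrophils with other CD45+ cells. In simulated counts the fits recovered 92% of 4-fold changes for sorted tumor against blood, 96% for the Retnlg classes, 64% for neutrophils against other cells and 77% for sorted against CD45+ tumor, and 53%, 75%, 39% and 28% of 2-fold changes in the same order. The simulated spread between libraries was capped at a dispersion of 0.05, with no other differences between libraries. Recovery in the real counts may therefore be lower. Replicate libraries differed by more than counting noise (chi-square per degree of freedom 9.76 to 22.5). Genes named beside the 5 were the 2 largest rises and falls called in each list, the 3 most alike genes (1 of those for Tspan2 is not reported here), the nearest ranks among falls, and genes that overlap or lie beside the 5, which were added after seeing the data. The 5 genes and the lists were chosen with earlier results of these data known. Alternatives were other scalings, filters and thresholds, removal of shared barcodes, and leaving out each library. Intervals and floors cover counting error only.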

Additional observations from a re-analysis of the deposited data

Results flagged for a closer look

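The Retnlg-linked change of Tspan2 and of Hacd4 differed between sorted tumor and blood neutrophils by a test of the difference itself, a comparison added after seeing the data. For Tspan2 the log2 change between Retnlg-high and Retnlg-0 cells was larger in sorted tumor than in blood by 1.42 ± 0.34 (adjusted p = 0.0189, edgeR). For Hacd4 it was larger by 1.29 ± 0.22 (adjusted p = 0.00226, edgeR). Both differences lost their call without sorted tumor library 1 (0.54 for Tspan2 and 0.76 for Hacd4) and with classes made at 2000 UMIs (0.42 and 0.25). For Tspan2 the call was also lost without blood library 1 (1.00), without the shared barcodes (1.31), at a neutrophil threshold of 2% (1.03), with little phagocyte RNA (1.1) and without scaling factors (1.13).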

How the results depend on the processing

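The log2 changes of the 5 genes between sorted tumor and blood stayed negative under every alternative run, from -3.86 to -2.75, and from -3.94 to -2.74 without 1 library, with 6914 to 9575 genes called against 8722 in the main analysis. Between Retnlg classes 5019 genes were called, against 2522 with a neutrophil threshold of 2%, 2366 with little phagocyte RNA, 2214 with depth-matched cells, 1454 in the CD45+ libraries alone and 3172 to 5124 without 1 library. There 4 of the 5 genes were called, 0 of 3 tested in the CD45+ libraries alone and 3 to 4 without 1 library. March1 changed direction in that comparison with the 2% threshold (0.63), with little phagocyte RNA (0.47), without CD45+ library 2 (-0.33 to 0.15 over the libraries), with depth-matched cells (0.17) and in the sorted libraries alone (0.19). Between neutrophils and other cells 1 of the 5 was called at a threshold of 0.2%, Hacd4 changed direction with RLE factors (0.040), DESeq2 (0.041) and doublets kept (0.051), and Xpc with no scaling factors (-0.072). No library could be left out there, since no residual degree of freedom would remain.

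Between sorted and CD45+ tumor 702 genes were called, against 1898 with no scaling factors, 1136 with DESeq2, 2474 with no filter on low counts, 4754 at a threshold of 0.2%, 0 at 2% (985 at an unadjusted p under 0.05 in edgeR, 55 called by DESeq2), 4579 with doublets kept, 52 with little phagocyte RNA, 57 without shared barcodes and 0 to 1614 without 1 library (0 without sorted tumor library 1, with 2215 at an unadjusted p under 0.05 in edgeR and 315 called by DESeq2, and 0 without sorted tumor library 2, with 1267 and 73). Of the 5 genes 2 were called with no scaling factors, at 0.2% and with doublets kept, and 0 to 1 without 1 library. Asb7 changed direction there at 0.2% (0.033) and without CD45+ library 1 (-0.448 to 0.0248 over the libraries), and Xpc with little phagocyte RNA (-0.21). The difference of the Retnlg change between sorted tumor and blood was called for 2 genes, for 1 with no scaling factors, at 2% and without shared barcodes, for 0 with thinning to 2000 UMIs and for 0 to 2 without 1 library. The causes of these shifts were not tested. Deviations of libraries with the same sample number had correlations over genes of -0.054 (sorted tumor and blood) and -0.009 (sorted and CD45+ tumor). With 2 libraries per group these values cannot tell whether sample numbers pair the libraries. With the replicate number as a block 8863 genes were called between sorted tumor and blood and 952 between sorted and CD45+ tumor, and 0 of the 5 genes in the sorted against CD45+ comparison (edgeR; 1 of 5 at an unadjusted p under 0.05 without the block).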
